A study of Mus musculus with 4 samples.

Results

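The genes described here encode subunits of the voltage-gated sodium channels of the brain. The set was named by gene symbol and comprised the pore-forming alpha subunits Scn1a, Scn2a, Scn3a, Scn8a and Scn9a and the auxiliary beta subunits Scn2b, Scn3b and Scn4b, 8 genes in all. Probes were assigned to them by accession through a RefSeq gene table, which found 6 of the 8 genes among 20660 named genes on the array, with 13 probes on 22 spots. No accession of the table for Scn3b or Scn9a was on the array, so these 2 genes have no value here. Probes under accessions that the table does not hold were not named, and probes for these 2 genes may be among them.

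Gene expression was measured in whole brains of newborn C57BL/6J mice on postnatal day 1, after intratracheal administration of titanium dioxide nanoparticles (TiO2-H) or vehicle (Sham) to the pregnant dam. Males and females of both exposures were kept apart, and each of the 4 groups had 1 one-color Agilent array. The TiO2-H dams received 25 μL of suspension, 100 μg per mouse, and the Sham dams the same volume of the suspension freed of its particles. The RNA of a group was pooled before labeling, with 2 offspring taken per dam and 5 dams contributing for Sham and 6 for TiO2-H. The protocol text gives gestational day 10.5 for the administration and the sample descriptions give day 14. A pool per group leaves no measure of the spread between animals or litters, and no p-value can be given within a sex.

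Voltage-gated sodium channels open on depolarization and carry the inward current that starts and propagates the action potential. One alpha subunit forms the pore and the voltage sensors, and beta subunits, which are small membrane proteins with an immunoglobulin-like fold, attach to it, tune its gating and surface level and act in cell adhesion. In the newborn rodent brain, Scn2a and Scn3a are known as the early neuronal alpha genes, whereas Scn1a and Scn8a are known to become prominent as the brain matures, Scn1a above all in inhibitory interneurons and Scn8a at the axon initial segment and nodes of Ranvier. Scn9a is known mainly from peripheral sensory neurons.

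The start regions of the genes that could be read are shown because the study asked about CpG methylation. The number of CpG sites in a start region is the basic fact for it. RefSeq start regions (build GRCm38.p6) were available for 6 of the 8 genes with 8 starts, and Scn3a and Scn3b were not matched. Each line gives the 250 bases before an annotated start, 5′ to 3′ on the strand of the gene, with the CpG dinucleotides in capitals. Scn1a lies on the minus strand at chr2:66440838-66441087, the 2 starts of Scn2a on the plus strand at chr2:65620519-65620768 and chr2:65668436-65668685, and the upstream start of Scn8a on the plus strand at chr15:100870395-100870644.
Scn1a: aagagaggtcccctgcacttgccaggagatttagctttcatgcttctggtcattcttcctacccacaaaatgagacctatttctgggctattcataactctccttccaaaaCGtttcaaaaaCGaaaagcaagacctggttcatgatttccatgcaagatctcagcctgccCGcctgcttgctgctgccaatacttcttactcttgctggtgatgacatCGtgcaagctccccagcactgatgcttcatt
Scn2a, first start: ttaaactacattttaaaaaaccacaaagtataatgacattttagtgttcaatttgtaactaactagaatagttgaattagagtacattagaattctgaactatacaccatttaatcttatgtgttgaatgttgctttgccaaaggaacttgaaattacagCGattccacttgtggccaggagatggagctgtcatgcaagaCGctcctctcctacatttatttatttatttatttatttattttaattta
Scn2a, second start: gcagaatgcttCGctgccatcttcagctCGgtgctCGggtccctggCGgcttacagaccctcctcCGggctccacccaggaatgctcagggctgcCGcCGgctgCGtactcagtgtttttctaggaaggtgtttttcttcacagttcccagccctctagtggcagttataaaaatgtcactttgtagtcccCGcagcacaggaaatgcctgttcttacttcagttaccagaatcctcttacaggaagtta
Scn8a, upstream start: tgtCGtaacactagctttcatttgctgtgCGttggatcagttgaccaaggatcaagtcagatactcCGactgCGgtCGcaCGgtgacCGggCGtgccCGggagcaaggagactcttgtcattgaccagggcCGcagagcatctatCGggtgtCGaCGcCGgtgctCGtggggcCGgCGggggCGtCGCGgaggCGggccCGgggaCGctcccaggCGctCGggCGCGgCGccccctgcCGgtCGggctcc

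The Scn1a window held 4 CpG sites, and the Scn2a windows held 2 and 9. The upstream Scn8a window held 30, more than 94.1% of the 32851 windows in the table, whose median was 6 (25th to 75th percentile, 2 to 16). The other Scn8a window (chr15:100936021-100936270, plus strand), not printed, held 9, as many as the second Scn2a window. Of the beta subunit genes, Scn2b had 1 CpG site and Scn4b 23, and the Scn9a window held 5. A TATA box (TATAAA, either strand) was present in the second Scn2a window, as in 12.4% of all windows, and a CCAAT box (CCAAT, either strand) in those of Scn1a and Scn4b, as in 33.8%. A GC box (GGGCGG) was in none of the 8 windows and in 32.7% of all, and the left and right parts of the site of the neuronal gene repressor REST (TTCAGCACC and GGACAGC) were in none and in 0.3% and 5.3% of all. These letters describe the windows only, and whether they bear on the order of the arrays was not tested. The methylation of these regions was not analysed here.

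The 4 arrays were alike in quality but not identical. Between 56.2% and 56.9% of spots were well above background on the Sham arrays and between 59.4% and 61.2% on the TiO2-H arrays, and the 75th percentile of the signal was 795.3 to 810.4 and 867.4 to 870.7. Both Sham arrays lay in row 1 of a slide and both TiO2-H arrays in row 2 of a slide, so slide row and exposure cannot be told apart. The sex-linked genes went against the labels of the TiO2-H arrays. The signal of the Y-linked Eif2s3y was 3519 in Sham male and 419 in Sham female, but 6.40 in the pool labelled TiO2-H male and 4345 in that labelled TiO2-H female, and Ddx3y followed with 1418, 142, 7.18 and 1783. Both were thus well above background in the Sham female pool too, at signals far below those of Sham male. Xist, transcribed from the inactive X chromosome, had 17.9, 275.6, 346.6 and 5.36. The brighter probe of Uty was well above background for Sham male (49.9) and for the array labelled TiO2-H female (47.6) only, and Kdm5d on none. The TiO2-H arrays are therefore called by their labels, and differences were read over both sexes together, for which the sex labels do not matter.

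Of the 13 sodium channel probes, 12 were well above background on all 4 arrays. The remaining one, the dimmest of 3 Scn8a probes, was well above background on none (signals 17.2 to 20.9) and was left out. Values are scaled log2 signals, the log2 of a probe's signal over the 75th percentile of its array, so that 0 stands for a probe as bright as that percentile. A TiO2-H minus Sham difference of 0.17 corresponds to 1.13-fold. Levels of different probes were not compared, since each probe binds its target with its own strength. The sums given for marker lists add such levels, so each sum mostly follows its brightest probes. In whole-brain RNA, fewer cells of a type and less RNA per cell cannot be told apart.

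Scn2a, which encodes the alpha subunit NaV1.2 of excitatory neurons and of the early axon initial segment, was measured by 3 probes. The brightest gave scaled log2 signals of 2.45 on Sham male, 2.42 on Sham female, 2.57 on the array labelled TiO2-H male and 2.67 on the array labelled TiO2-H female. Both TiO2-H arrays were above both Sham arrays, with a difference over both sexes of 0.19 (limma SE 0.058, adjusted p = 0.355). A dimmer probe gave -1.49, -1.61, -1.26 and -1.31 in the same order, again without overlap between the exposures, and its difference was 0.27 (limma SE 0.065, adjusted p = 0.351).

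The third Scn2a probe was printed on 10 spots, so its spread within an array could be seen. Its mean scaled log2 signals were 0.84 on Sham male, 0.93 on Sham female, 1.17 on the array labelled TiO2-H male and 1.24 on the array labelled TiO2-H female, a difference of 0.32 (limma SE 0.061, adjusted p = 0.351) or 1.25-fold. The spots ranged from 0.76 to 0.93 on Sham male, where 2 of the 10 spots were left out as outliers, and from 0.73 to 1.07 on Sham female. They ranged from 1.09 to 1.26 on the array labelled TiO2-H male and from 1.16 to 1.36 on that labelled TiO2-H female. The lowest TiO2-H spot thus lay above the highest Sham spot, and the SD between spots was 0.047, 0.098, 0.053 and 0.065. Spots of an array share the same pool of RNA, so they measure the precision of the array and not the spread between animals.

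**Figure D1:**
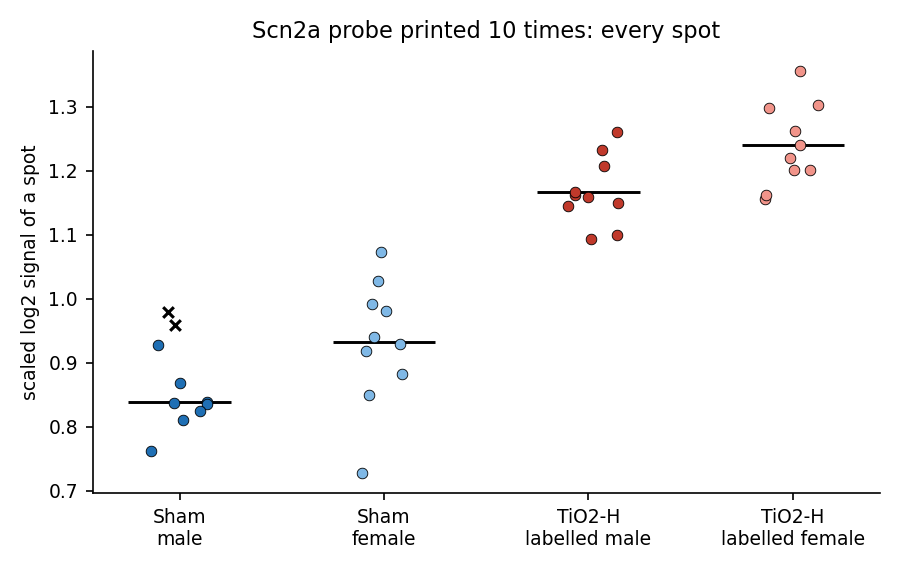
Scaled log2 signal (vertical axis) of every spot of the Scn2a probe printed on 10 spots, for the 4 arrays along the horizontal axis. Dots are spots used, crosses the 2 Sham male spots marked as outliers, and lines the means of the spots used, and all TiO2-H spots (1.09 to 1.36) lie above all Sham spots used (0.73 to 1.07).

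Scn3a, which encodes NaV1.3, the alpha subunit that predominates before and around birth, was also measured by 3 probes. The brightest gave 2.71 on Sham male, 2.77 on Sham female, 2.85 on the array labelled TiO2-H male and 2.96 on that labelled TiO2-H female, with a difference of 0.16 (limma SE 0.064, adjusted p = 0.381). The second gave 2.63, 2.74, 2.83 and 2.86, a difference of 0.16 (limma SE 0.059, adjusted p = 0.373). The TiO2-H arrays were above the Sham arrays for both. The third probe was dim, with signals of 49.7, 56.1, 66.3 and 81.6 in the same order, and had the largest difference of the 12 probes, 0.36, together with a large error (limma SE 0.146, adjusted p = 0.386).

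Scn1a, which encodes NaV1.1, the alpha subunit of fast-spiking interneurons whose loss in humans causes Dravet syndrome, had 2 probes that did not give the same picture. The brighter gave 0.94 on Sham male, 1.01 on Sham female, 1.11 on the array labelled TiO2-H male and 1.18 on that labelled TiO2-H female, so that the exposures did not overlap (difference 0.17, limma SE 0.055, adjusted p = 0.357). The dimmer gave -2.49, -2.45, -2.60 and -2.45, with overlap (difference -0.05, limma SE 0.073, adjusted p = 0.736). With the mean of both probes the difference of the gene was 0.06.

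Scn8a, which encodes NaV1.6, the alpha subunit of mature initial segments and nodes, was the single gene of the set with both TiO2-H arrays below both Sham arrays. Its brightest probe gave 1.62 on Sham male, 1.68 on Sham female, 1.55 on the array labelled TiO2-H male and 1.55 on that labelled TiO2-H female. The difference was -0.10 (limma SE 0.046, adjusted p = 0.414), but without scaling between the arrays it was 0.01, with overlapping arrays. Its second probe overlapped, at -2.52, -2.65, -2.58 and -2.69 (difference -0.05, adjusted p = 0.76 by limma).

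The beta subunit genes with a value here, Scn2b and Scn4b, showed no separation of the exposures with this scaling. Scn2b, which encodes a subunit linked to the alpha subunit by a disulfide bond, gave 0.38 on Sham male, 0.39 on Sham female, 0.37 on the array labelled TiO2-H male and 0.41 on that labelled TiO2-H female. The difference was -0.001 (limma SE 0.043, adjusted p = 0.991). This placement depended on the scaling, since the TiO2-H arrays were above the Sham arrays without scaling (0.11) and below them after the normexp background correction (-0.11). Scn4b, which encodes the subunit known for resurgent current, was dim and varied most between arrays of the same exposure, with -2.94, -3.29, -3.04 and -3.15 in the same order (difference 0.02, limma SE 0.148, adjusted p = 0.956).

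**Figure D2:**
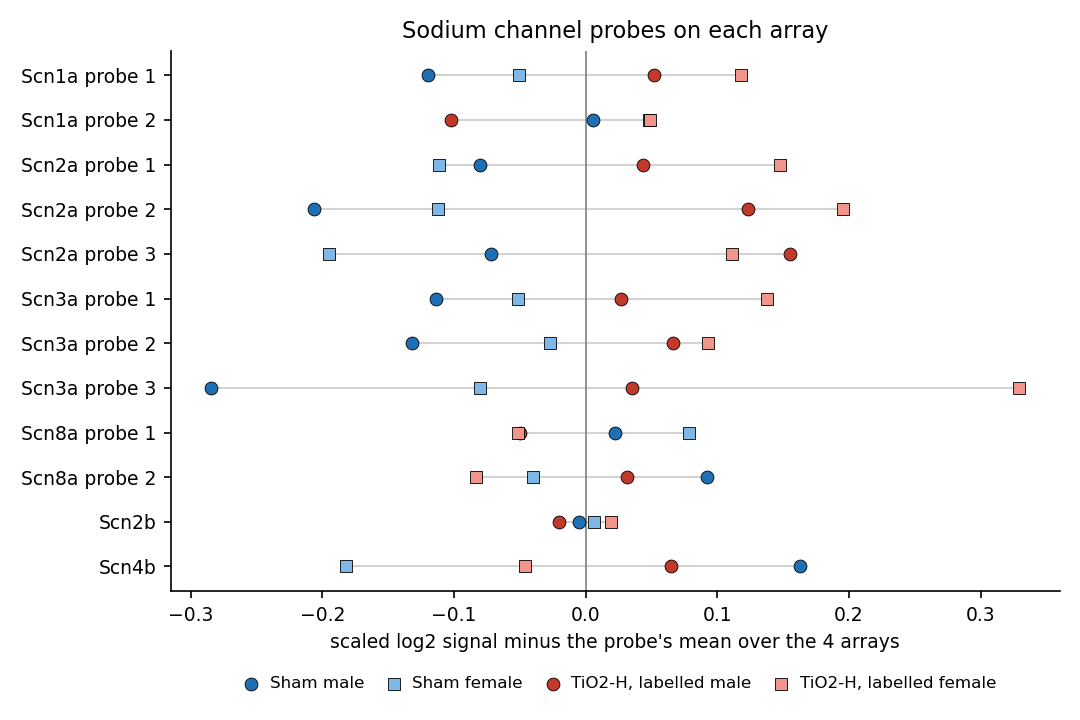
Scaled log2 signal of the 12 sodium channel probes on the 4 arrays (horizontal axis), each minus the mean of that probe over the arrays, with probes of a gene numbered from the brightest. The 3 Scn2a and 3 Scn3a probes and the brighter Scn1a probe have both TiO2-H arrays (red) to the right of both Sham arrays (blue), and the brightest Scn8a probe has them to the left, except without scaling between the arrays, where it overlaps.

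Over the set, both TiO2-H arrays were above both Sham arrays for 7 of the 12 probes (58.3%), against 26.3% of the 35626 probes tested. They were below for 1 probe (8.3%), against 26.9% of all probes, and that probe, of Scn8a, overlapped without scaling. By gene, with the brightest probe standing for it, 3 were above, 1 below and 2 overlapped. The probes of a gene share their transcript and are not replicates. The median difference of the 6 genes was 0.09 and that of the 12 probes 0.16, where all probes had a median of 0.001 and a 5th to 95th percentile range of -0.44 to 0.39. All 12 differences lay within that range. Without scaling between the arrays the median of all probes was 0.115 and that of the 6 genes 0.21.

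None of the differences passed limma with Benjamini-Hochberg adjustment over all 35626 probes, where the adjusted p of the sodium channel probes was between 0.351 and 0.991. No probe of the whole array did (0 of 35626, 0.0%), and the lowest adjusted p was 0.311. At an unadjusted p under 0.05, limma gave 4 of the 12 sodium channel probes, the 3 of Scn2a and the brighter of Scn1a, against 4968 or 13.9% of all probes. An exact permutation test of 2 arrays against 2 has 6 splits and cannot give a two-sided p below 0.333.

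The fold changes within a label were small. The 12 probes ranged from 0.928-fold to 1.26-fold between the arrays labelled male and from 0.914-fold to 1.33-fold between those labelled female. None reached the 1.5-fold or 0.67-fold used as thresholds in the study, which 7.37% and 5.96% of all probes compared passed. None passed between Sham female and Sham male either, where 6.32% of all probes did, nor between the TiO2-H arrays, where 6.21% did. For 10 of the 12 probes the arrays of Sham differed by at most 0.15 on the log2 scale, and the same number held for TiO2-H. The share of all probes within 0.15 was not counted, so this cannot be read as a trait of the set. The largest differences within an exposure were 0.34 for Scn4b between the Sham arrays and 0.29 for the dim Scn3a probe between the TiO2-H arrays. Compared across the sex labels, as the sex-linked genes would pair the arrays, no gene of the set passed the thresholds. The share of all probes that passed in that pairing was not counted.

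**Figure D3:**
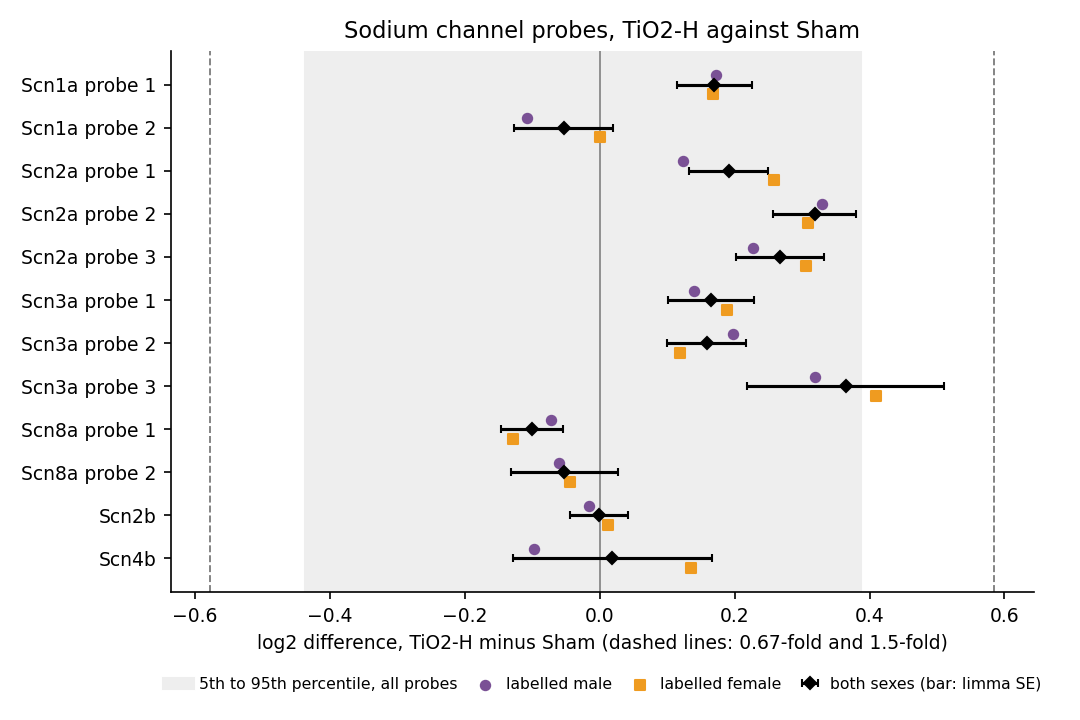
TiO2-H minus Sham difference in scaled log2 signal (horizontal axis) of the 12 sodium channel probes, for the arrays labelled male (circles), those labelled female (squares) and both (diamonds, bars are the limma SE). All lie inside the 0.67-fold and 1.5-fold thresholds (dashed), and the diamonds lie inside the 5th to 95th percentile range of all probes (grey, -0.44 to 0.39), with Scn2a and Scn3a to the right of 0 and Scn8a to the left, where without scaling its brightest probe moves to 0.01.

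The genes whose TiO2-H arrays were above the Sham arrays lie together. In the RefSeq table Scn3a and Scn2a are neighbours on chromosome 2, 3 protein-coding genes separate Scn2a from Scn1a, and Scn9a and Scn7a follow directly. Scn2b and Scn4b are neighbours on chromosome 9, and Scn8a is alone on chromosome 15. The genes around the chromosome 2 cluster were looked at after its values were seen. The 3 genes between Scn2a and Scn1a overlapped between the exposures, with differences of 0.02 for Csrnp3, -0.09 for Galnt3 and -0.01 for Ttc21b. Of the 4 protein-coding genes on either side of the cluster, 6 could be tested, and all 6 were above, as were 26.3% of all probes, namely Fign (0.19), Grb14 (0.24), Cobll1 (0.10), Slc38a11 (0.51), B3galt1 (0.14) and Stk39 (0.10). Slc38a11 was dim, with signals of 45.7 and 49.9 on the Sham arrays and 68.2 and 79.6 on the TiO2-H arrays (limma SE 0.112). None of the 9 genes passed limma, with adjusted p of 0.351 or more.

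Other genes of the channel family did not share one direction. Nalcn, which encodes a sodium leak channel, gave signals of 388.2 on Sham male, 359.3 on Sham female, 538.0 on the array labelled TiO2-H male and 547.2 on that labelled TiO2-H female, a difference of 0.42 (limma SE 0.053, adjusted p = 0.351). Its exposures did not overlap. Scn4a, the channel of skeletal muscle, was below, with a difference of -0.19 (limma SE 0.061, adjusted p = 0.357). Scn11a, a channel of sensory neurons, overlapped (-0.02, or 0.10 without scaling) and was named after its values were seen. Scn7a and Scn10a were well above background on no array.

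A further list held 12 genes named as partners of the channels at the axon initial segment and the nodes of Ranvier, matrix genes among them. Both TiO2-H arrays were above both Sham arrays for 10 of the 12 genes and below for none. Of all probes, 26.3% were above and 26.9% below. The median difference of the list was 0.16. Tnr, which encodes the matrix protein tenascin-R that binds the beta subunits, had the largest, 0.69 (limma SE 0.262, adjusted p = 0.377), and passed 1.5-fold between the arrays labelled male. Ank3, whose product ankyrin-G anchors the channels, had 0.27 (limma SE 0.094, adjusted p = 0.362).

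Of 15 intracellular regulators of the channels, 10 were above and 1 was below, beside 26.3% and 26.9% of all probes, with a median of 0.06. The largest differences were those of Magi1, a scaffold gene (0.27, limma adjusted p = 0.351), and Fgf14, whose product binds the tail of the alpha subunit (0.23, adjusted p = 0.351). Of 11 splicing and transcription regulators, 5 were above and 1 was below, beside the same shares, with a median of 0.06. Nova1 (0.16) and Rbfox1 (0.12), both splicing factors of neurons, had the largest differences. Rest, the repressor of neuronal genes in other cells, overlapped at -0.05.

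Of the 7 sheddases and secretases of the beta subunits that were tested, 2 were above and 1 was below, beside 26.3% and 26.9% of all probes, with a median of 0.01. Ncstn, a part of gamma-secretase, had the largest difference, -1.04 (limma SE 0.616, adjusted p = 0.483), and it came from a single array, with a signal of 231.6 on Sham male against 76.8, 67.5 and 72.9 on the other arrays. Adam17, a sheddase gene, had 0.42 (limma SE 0.158, adjusted p = 0.377). Its probe was dim, with signals of 48.4 and 44.7 on the Sham arrays and 76.6 and 59.1 on the TiO2-H arrays. None of the genes in these lists passed limma after adjustment.

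**Figure D4:**
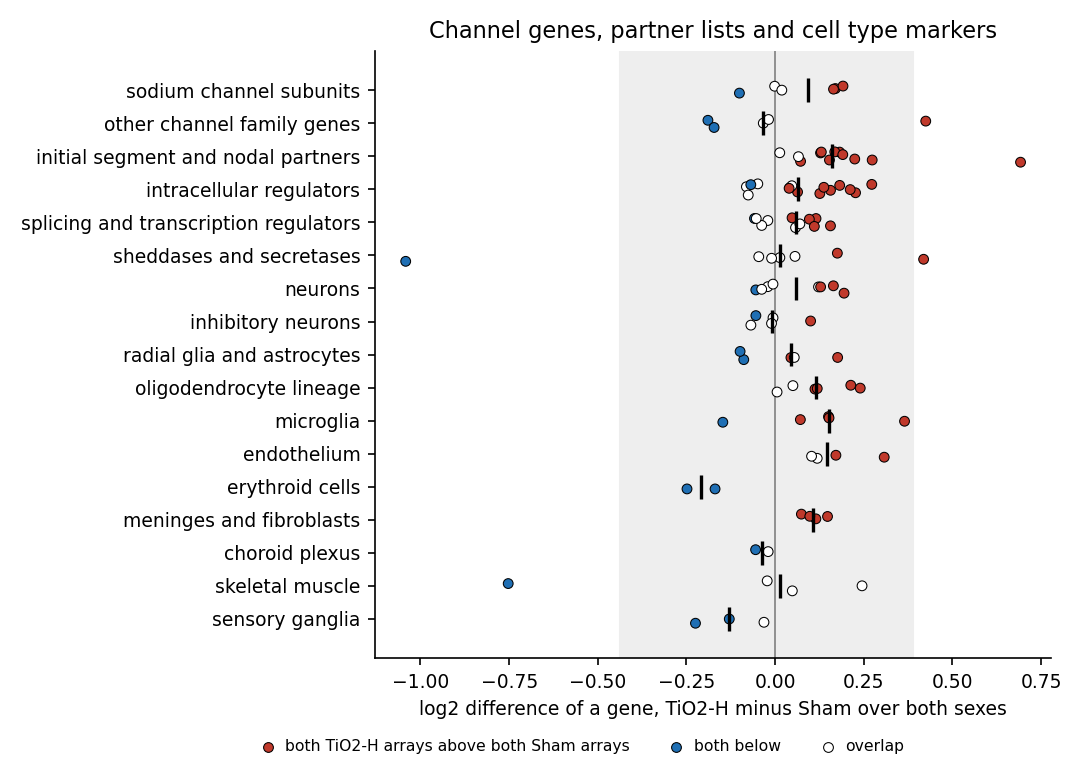
TiO2-H minus Sham difference in scaled log2 signal over both sexes (horizontal axis) of each tested gene, by list, with the brightest probe per gene. Bars are list medians, colors show whether both TiO2-H arrays were above (red) or below (blue) both Sham arrays or overlapped (white), and grey is the 5th to 95th percentile range of all probes, inside which all genes but Tnr, Nalcn, Adam17, Ncstn and the muscle marker Ckm lie.

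The tissue carried the markers of whole newborn brain. All 8 neuronal, 5 inhibitory neuron, 5 radial glia and astrocyte and 6 oligodendrocyte lineage markers were well above background on all 4 arrays. The summed scaled signal of the neuronal markers was 418 to 420 on the Sham arrays and 417 to 431 on the TiO2-H arrays. Their median difference was 0.06, with 3 of 8 genes above, 1 below and 4 overlapping. Of all probes, 26.3% were above and 26.9% below. Snap25 (0.19) and Map2 (0.16) were the highest, and Tubb3 (-0.05) was the gene below with this scaling. The inhibitory neuron markers had a median of -0.01, with Slc32a1 at 0.10 and Dlx1 at -0.07. That of the radial glia and astrocyte markers was 0.04, with Fabp7 at 0.18 and Gfap at -0.10, and their sum was 114 to 122 and 128 to 130.

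Several other cell types had more markers with both TiO2-H arrays above both Sham arrays than below. The shares of all probes were 26.3% above and 26.9% below. The summed scaled signal of the oligodendrocyte lineage was 19.92 to 19.997 on the Sham arrays and 21.8 to 22.3 on the TiO2-H arrays, with 4 of 6 genes above, among them Olig1 (0.21). For microglia it was 12.8 to 13.2 and 13.99 to 14.16, with 4 of 5 genes above, among them P2ry12 (0.36) and Aif1 (0.15). C1qa was below with this scaling (-0.15), and its signals before scaling overlapped. For endothelium the sum was 7.64 to 7.92 and 8.82 on both, with 2 of 4 above, Flt1 (0.31) and Cldn5 (0.17). For meninges and fibroblasts it was 20.8 to 21.1 and 22.2 to 22.7, with all 4 above, Dcn (0.15) and Col1a1 (0.11) first.

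The summed scaled signal of the erythroid markers, mostly that of Hba-a1, was lower, at 60.0 to 62.5 on Sham and 51.4 to 51.7 on TiO2-H. Hba-a1 was at -0.25 and Alas2 at -0.17. The choroid plexus markers Ttr (-0.06) and Folr1 (-0.02) had a sum, mostly from Ttr, of 82.4 to 84.8 and 79.9 to 81.1. Without scaling between the arrays both markers were higher, with a median difference of 0.077. Of the skeletal muscle markers, none was above and 1 was below, beside 26.3% and 26.9% of all probes. The one below was Ckm (-0.75), which cleared the background in Sham female alone, and Myh3 was at 0.25 and Tnnt3 at 0.05, with a sum of 1.02 to 1.07 and 0.992 to 1.07. Of the sensory ganglion markers, 2 of the 3 tested were below with this scaling, beside 26.9% of all probes. Prph (-0.13) was among them, and Avil was well above background on no array. Tubb3, C1qa and Ckm were named after their values were seen. The part of these markers in the sodium channel differences was not tested, nor was that of the higher share of spots above background on the TiO2-H arrays.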

How the data were processed

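Whole-brain mRNA of newborn mice was measured on 4 one-color arrays, 1 pool of RNA each. The deposited scanner files and the value table both hold intensity, which the authors obtained with Agilent Feature Extraction (version 10.10.1.1), a program that subtracts background. Over all non-control spots the table equalled the scanner files' processed signal.

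Processed signals were divided by the 75th percentile of the array over its 59305 non-control spots and taken to log2. Outlier spots were left out and spots of a probe averaged. Probes entered a comparison if well above background on 1 or more of its arrays, and elsewhere a dim value, if lower, was raised to the array's lowest signal well above background, which makes it a bound. None of the tested sodium channel probes needed this. A RefSeq gene table gave names to 98.0% of the 21887 NM and NR accessions. The table's build is not that of the array design, so it was used only for names and the order of genes. The brightest probe stood for a gene, whereas the shares over all probes count every tested probe, dim ones included.

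TiO2-H was compared with Sham in limma 3.58.1 (R 4.3.3) without a term for sex, on 35626 probes, with Benjamini-Hochberg adjustment. The number of arrays limits the precision, and p-values measure only the spread between 2 pools of an exposure. Tables were handled in Python 3.11.15 with pandas 2.3.3 and numpy 2.4.6. The tests were checked on simulated data with changes far larger than those of the sodium channel probes. The check does not cover differences as small as theirs. Named were all members, and of each other list the 2 genes with the largest difference that were detected on every array, plus the sex-linked genes, and some genes of these lists are not reported here. The members and lists were chosen with earlier results of these data known. Alternatives were other scalings, a normexp background correction with an offset of 50, other filters and floors, the mean of all probes, a sex term and leaving out each array.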

Additional observations from a re-analysis of the deposited data

Results flagged for a closer look

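Scn2b and Scn4b differed in direction between the arrays labelled male and those labelled female, with 1 array per group, and the difference was not tested. Scn2b had a TiO2-H minus Sham difference of -0.015 for the arrays labelled male and 0.012 for those labelled female. These were 0.028 apart, less than the 0.039 by which the TiO2-H arrays themselves differed. Scn4b had -0.10 and 0.14, 0.234 apart, less than the 0.34 by which the Sham arrays themselves differed. The sex-linked genes went against the labels of the TiO2-H arrays.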

How the results depend on the processing

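The alternatives left 0 sodium channel genes past the fold thresholds and 0 probes past limma after adjustment, whose lowest adjusted p was between 0.122 and 0.531 over 14 alternatives. Scn1a, Scn2a and Scn3a kept their direction in 13 of 13 alternatives (0.06 to 0.28, 0.14 to 0.31 and 0.11 to 0.28), and Scn8a in 12 of 13, with 0.014 without scaling. The median difference of the 6 genes, 0.092, was 0.206 without scaling, 0.074 with quantile normalization, 0.0742 with the percentile over probes detected on all arrays, 0.0249 with normexp, 0.0386 with the mean of all probes, and 0.0901 to 0.134 with each array left out. Scn2b turned to 0.113 without scaling, and ranged from -0.0211 to 0.0184 with each array left out, the latter without the array labelled TiO2-H male, and was 0.0045 without Sham female. Scn4b turned to -0.0046 with quantile normalization and -0.112 with normexp, and ranged from -0.154 without Sham female to 0.191 without Sham male, with -0.0366 without the array labelled TiO2-H male. The cause was not tested, except that the shift without scaling follows from the brighter TiO2-H arrays. Normexp was run on median signals. With sex as a block, as labelled or crossed within TiO2-H, limma passed 0 probes, with lowest adjusted p of 0.492 and 0.531. The number of arrays limits these values.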
